A study of Mus musculus with 23 samples.

Results

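Secretory protein folding and the unfolded protein response were followed through 10 genes, *Xbp1*, *Ern2*, *Creb3l1*, *Creb3l4*, *Atf4*, *Ddit3*, *Hspa5*, *Pdia4*, *Dnajb9* and *Sdf2l1*, taken by symbol from the 55449 genes of a colon RNA-seq count table. The 10 symbols matched 11 rows, since *Ddit3* has a second row (ENSMUSG00000116429.1) that held at most 0.91 counts in any library and was not used. All 10 genes passed the filter on low counts in every comparison.

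Proteins bound for secretion fold in the endoplasmic reticulum (ER), helped by chaperones such as the product of *Hspa5* (BiP) and by enzymes that form disulfide bonds. When unfolded protein builds up there, 3 sensors respond. IRE1 splices the mRNA of *Xbp1* into the form that codes for an active transcription factor, PERK slows translation and favors that of *Atf4*, whose protein can induce *Ddit3* (CHOP), and ATF6 is cut to release a transcription factor. Intestinal epithelium has another IRE1, the product of *Ern2* (IRE1β), which is best known from goblet cells, the cells that make mucin. *Creb3l1* (OASIS) and *Creb3l4* code for membrane-bound transcription factors related to ATF6 and occur in secretory cells.

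The mice were male C57BL/6 animals of the genotype Cdx2Apcf/w, 6 to 8 weeks old at the start, in which Cre under the *Cdx2* promoter removes 1 floxed copy of *Apc* in cells that have used that promoter. All were fed a 60% high-fat diet and colonized with *Bacteroides fragilis* 638R, either BF638R bsh- (BSHlow) or BF638R bsh+ (BSHhigh), which differ in bile salt hydrolase, a bacterial enzyme that deconjugates bile acids. RNA was taken from normal colon at 2 weeks (4 BSHlow and 4 BSHhigh libraries) and from non-tumor colon (4 and 4) and tumors (4 and 3) at 12 weeks. Every group, controls included, carries the *Apc* allele, the diet and a BF638R strain. By the study's methods, mice to be colonized also drank an antibiotic cocktail beforehand. Each group is bulk tissue from separate libraries whose animals the labels do not name, so that p-values measure the spread between these libraries.

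The 23 libraries held between 12401388 and 17903008 counts (median 15874872). Epithelial markers were present in all groups (6 of 6 genes, summed level between 4512 and 17016 CPM, a gene's share of its library's counts on 1 TMM scale). Goblet cell markers (10 genes) summed to between 12125 and 34084 CPM in the 16 non-tumor and 2-week libraries, to between 683 and 4636 CPM in the 3 BSHhigh tumors and to between 77.8 and 186 CPM in the 4 BSHlow tumors, and none of them was at 0 in any group. The header of the deposited table repeats the names of 3 BSHlow tumors over the columns used here as the BSHhigh tumors. These were identified as a group because the study lists the same values under that group, and are called replicates a, b and c. In bulk tissue, fewer cells of a type and less RNA per cell cannot be told apart.

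The start regions of 3 members are shown first, because they hold a match to the ER stress response element (ERSE), the motif through which ATF6 and NF-Y act on ER chaperone genes. RefSeq start windows (250 bases before to 50 after a transcript's start, GRCm38.p6) were at hand for 8 of the 10 members, in 10 windows, while *Ern2* and *Creb3l1* had none. The motifs searched on both strands were ERSE (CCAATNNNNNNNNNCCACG), ERSE-II (ATTGG and CCACG with 1 base between them), the XBP1-type element UPRE (TGACGTGG), the cyclic AMP element CRE (TGACGTCA, whose first 6 letters are those of UPRE) and the ATF4-type element CARE (TGATGNAA). Capitals mark the fixed letters of an ERSE match, exact in *Hspa5* and with 1 fixed letter changed in *Pdia4* and *Ddit3*, where the element lies on the opposite strand.
*Hspa5*, chr2:34771840-34772139, + strand: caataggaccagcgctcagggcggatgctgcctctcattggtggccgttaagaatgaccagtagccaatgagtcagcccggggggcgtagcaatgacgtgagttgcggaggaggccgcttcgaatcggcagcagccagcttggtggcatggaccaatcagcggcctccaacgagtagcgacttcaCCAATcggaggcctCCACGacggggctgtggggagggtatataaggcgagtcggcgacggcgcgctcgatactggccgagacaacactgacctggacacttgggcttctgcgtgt
*Pdia4*, chr6:47813463-47813762, - strand: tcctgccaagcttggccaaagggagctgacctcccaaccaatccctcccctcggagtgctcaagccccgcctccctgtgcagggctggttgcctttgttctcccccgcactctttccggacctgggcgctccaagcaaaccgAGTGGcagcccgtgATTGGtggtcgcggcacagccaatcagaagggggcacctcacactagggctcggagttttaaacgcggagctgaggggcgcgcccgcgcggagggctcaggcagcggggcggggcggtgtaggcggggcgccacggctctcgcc
*Ddit3*, chr10:127290543-127290842, + strand: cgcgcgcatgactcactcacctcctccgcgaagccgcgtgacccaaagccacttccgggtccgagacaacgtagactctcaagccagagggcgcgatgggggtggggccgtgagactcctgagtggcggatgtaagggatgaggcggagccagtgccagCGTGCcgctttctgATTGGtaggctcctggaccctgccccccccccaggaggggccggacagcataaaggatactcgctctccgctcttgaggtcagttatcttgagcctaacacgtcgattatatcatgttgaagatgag
The *Hspa5* match began 65 bases before the start, those of *Ddit3* and *Pdia4* 91 and 108 bases before it. An exact ERSE stood in 39 of 32851 start windows of 300 bases (0.119%), and one with at most 1 changed letter in 494 (1.5%). None of the 10 member windows held an ERSE-II, UPRE, CRE or CARE, which stood in 0.0365%, 0.676%, 1.79% and 3.97% of all windows. A match describes letters only, and its absence says nothing about a factor's binding.

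Levels were compared between genes as CPM per kilobase of exon. In BSHlow non-tumor colon, *Hspa5* had the highest level, with 146 ± 19.4 CPM per kilobase (SD, n = 4). *Creb3l1* (76.2 ± 16.2), *Xbp1* (71.7 ± 5.28), *Pdia4* (53.3 ± 5.49) and *Atf4* (51.0 ± 5.55) formed a middle range in which the SDs of *Creb3l1* and *Xbp1* and those of *Pdia4* and *Atf4* overlapped. *Sdf2l1*, *Dnajb9* and *Ern2*, with 21.7 ± 5.76, 21.6 ± 2.97 and 20.4 ± 2.38 CPM per kilobase, did not differ beyond their spread. *Creb3l4* (12.8 ± 4.10) and *Ddit3* (6.59 ± 1.28) were lowest. In the BSHlow tumors *Hspa5* (211 ± 59.2) was still first, but *Pdia4* (94.6 ± 17.0) came second. *Ern2* (3.20 ± 0.870) had the lowest mean there, with an SD that overlapped those of *Ddit3* (4.35 ± 1.04) and *Creb3l4* (4.49 ± 1.03).

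**Figure D1:**
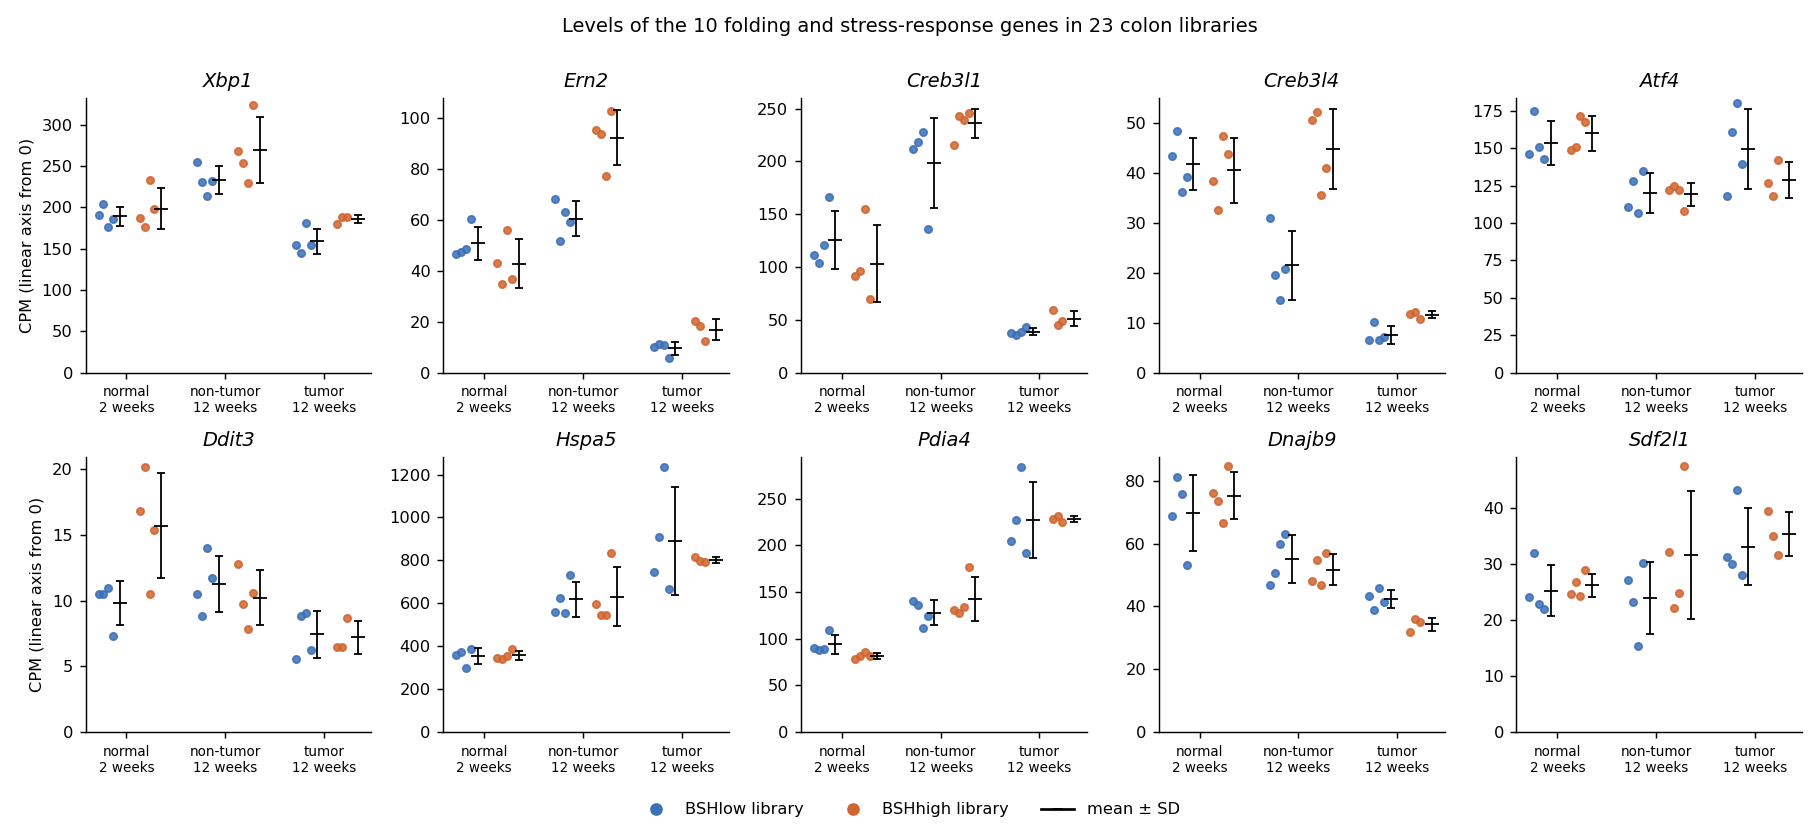
Level of each of the 10 genes (CPM, linear axis from 0) in the 23 libraries, by tissue and time along the x axis. Points are libraries, blue for BSHlow and orange for BSHhigh, and bars are the mean ± SD. *Ern2*, *Creb3l1* and *Creb3l4* are lowest in tumors, where *Pdia4* is highest.

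Tumors and non-tumor colon of the same treatment were compared to ask how the folding genes differ between the tissues. In BSHlow mice 3 of the 10 genes rose (*Pdia4*, *Hspa5* and *Atf4*) and 6 fell (*Ern2*, *Creb3l1*, *Creb3l4*, *Ddit3*, *Xbp1* and *Dnajb9*), at an adjusted p under 0.05 in edgeR's quasi-likelihood test. Of all 16454 genes tested, 33.3% were called higher and 32.2% lower, so a count of 9 called members stands against a tissue difference that touches most genes. In BSHhigh mice 1 rose (*Pdia4*) and 5 fell (*Ern2*, *Creb3l1*, *Creb3l4*, *Dnajb9* and *Xbp1*), beside 29.4% higher and 27.2% lower of all genes. The members' median log2 fold change was -0.48 in BSHlow and -0.53 in BSHhigh, where that of all genes was 0.04 in both.

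*Ern2* (ENSMUSG00000030866.8, chr7:122169893-122186207) had 68.4, 51.7, 63.0 and 59.2 CPM in the BSHlow non-tumor libraries and 9.97, 11.4, 10.8 and 5.72 CPM in the BSHlow tumors. In BSHhigh mice it had 95.5, 94.0, 77.3 and 103 CPM in non-tumor colon and 20.2, 18.3 and 12.3 CPM in tumors. Every tumor lay below every non-tumor library of its treatment, 6.46-fold lower on average in BSHlow and 5.49-fold lower in BSHhigh. The log2 fold change was -2.69 ± 0.20 (SE, adjusted p = 8.3e-08) in BSHlow and -2.46 ± 0.22 (adjusted p = 1.2e-06) in BSHhigh.

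The membrane-bound transcription factors also fell, *Creb3l1* by 5.18-fold in BSHlow and 4.66-fold in BSHhigh. *Creb3l1* (ENSMUSG00000027230.9, chr2:91982328-92024502) had 212, 218, 228 and 136 CPM in BSHlow non-tumor colon against 37.4, 35.4, 38.3 and 43.2 CPM in the tumors, and 216, 243, 239 and 246 against 59.0, 45.3 and 48.6 CPM in BSHhigh. The tissues did not overlap in either treatment, with log2 fold changes of -2.37 ± 0.14 (adjusted p = 2.0e-08) and -2.22 ± 0.16 (adjusted p = 2.3e-07). *Creb3l4* (ENSMUSG00000027938.11, chr3:90237500-90243512) had 30.9, 19.6, 14.5 and 20.8 CPM in BSHlow non-tumor colon against 6.48, 10.1, 6.54 and 7.04 CPM in the tumors, and 50.6, 52.1, 35.5 and 40.9 against 11.7, 12.2 and 10.8 CPM in BSHhigh. Here too all tumors were lower, with log2 fold changes of -1.53 ± 0.21 (adjusted p = 2.3e-05) and -1.96 ± 0.23 (adjusted p = 1.1e-05).

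Markers of several cell types were lower in the same comparison. All 10 goblet cell markers were called lower in BSHlow tumors (median log2 fold change -5.91) and 9 of 10 in BSHhigh tumors (median -3.23), and the ranges of their summed level are given above. Absorptive colonocyte markers were lower in the same counts, 10 and 9 of 10 (medians -5.97 and -2.34), and summed to between 2898 and 6182 CPM in the 8 non-tumor libraries of 12 weeks and to between 231 and 1286 CPM in the tumors. Plasma cell markers were lower in 6 of 8 and higher in 2 in both treatments (medians -5.66 and -2.88), and epithelial markers were lower in 5 and 4 of 6 and higher in 1 (medians -0.74 and -0.61). Smooth muscle markers (8 of 8 lower, medians -4.80 and -4.23) summed to between 1590.0 and 8721 CPM in the 8 non-tumor libraries of 12 weeks and to between 146 and 379.7 CPM in the tumors. Myeloid markers were higher in 4 and 2 of 7 and fibroblast markers in 2 and 3 of 6 (1 lower in each). The part of these cells in the members' differences was not tested.

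The chaperones and folding enzymes differed among themselves. *Pdia4* was called higher and *Dnajb9* lower in both treatments, *Hspa5* higher in BSHlow alone and *Sdf2l1* in neither. *Pdia4* (ENSMUSG00000025823.9, chr6:47796141-47813430), a protein disulfide isomerase with the ERSE-like match shown above, had 140.4, 136, 111 and 124 CPM in BSHlow non-tumor colon against 205, 227, 284 and 192 CPM in the tumors, and 131, 128, 134 and 177 against 228, 231 and 225 CPM in BSHhigh. It was the only member called higher in both treatments (*Hspa5* and *Atf4* were too with library size alone as the scale), without overlap of the tissues, by 0.81 ± 0.13 (adjusted p = 7.6e-05) and 0.67 ± 0.14 (adjusted p = 0.000885) on the log2 scale. *Hspa5* (ENSMUSG00000026864.13, chr2:34771970-34777547), the central ER chaperone and the gene with the exact ERSE, had 561, 625, 555 and 732 CPM in BSHlow non-tumor colon and 748, 911, 1234 and 669 CPM in the tumors. The tumor of 669 CPM lay within the non-tumor range, and the log2 fold change was 0.51 ± 0.18 (adjusted p = 0.0249). Without the tumor of 1234 CPM (replicate 3) it was 0.30 (adjusted p = 0.117), and the call was also lost without non-tumor replicate 1 (0.46, adjusted p = 0.0664) or 3 (0.45, adjusted p = 0.0674). In BSHhigh *Hspa5* had 599, 545, 548 and 834 CPM against 815, 798 and 791 CPM, a log2 difference of 0.34 ± 0.20 (adjusted p = 0.158). Without non-tumor replicate 4, the library of 834 CPM, that difference was 0.50 (adjusted p = 0.0389).

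*Dnajb9* (ENSMUSG00000014905.4, chr12:44205559-44210326), which codes for the co-chaperone ERdj4 and is a well-known XBP1 target, was lower in tumors in both treatments, in BSHlow not with library size alone as the scale (-0.06, adjusted p = 0.649). Its levels were 46.9 to 63.1 CPM in BSHlow non-tumor colon and 38.7 to 45.7 CPM in the tumors (log2 fold change -0.40 ± 0.11, adjusted p = 0.00515), and 46.8 to 57.0 against 32.0 to 36.1 CPM in BSHhigh (-0.60 ± 0.12, adjusted p = 0.000714). *Sdf2l1* (ENSMUSG00000022769.9, chr16:17130138-17132383), a partner of BiP, was not called, with 0.45 ± 0.24 (adjusted p = 0.118, and 0.78, adjusted p = 0.00716, with library size alone) in BSHlow and 0.16 ± 0.26 (adjusted p = 0.630) in BSHhigh.

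*Xbp1* (ENSMUSG00000020484.18, chr11:5520659-5525893) had 255, 231, 214 and 232 CPM in BSHlow non-tumor colon and 155, 145, 181 and 155 CPM in the tumors, and 269, 254, 230.2 and 324 against 180.3, 189 and 189 CPM in BSHhigh. All tumors were lower, with log2 fold changes of -0.57 ± 0.10 (adjusted p = 0.000254) and -0.54 ± 0.11 (adjusted p = 0.00101). With library size alone as the scale both calls of *Xbp1* were lost (-0.23, adjusted p = 0.0576, and -0.23, adjusted p = 0.0854). A count per gene does not separate spliced from unspliced *Xbp1*. Of the PERK branch, *Atf4* (ENSMUSG00000042406.8, chr15:80255184-80257541) spanned 107 to 135 CPM in BSHlow non-tumor colon and 118 to 180.3 CPM in the tumors, a log2 fold change of 0.30 ± 0.12 (adjusted p = 0.0413) that was no longer called on leaving out any of 12 of the 15 libraries fitted (adjusted p up to 0.181, at 0.18 without tumor replicate 3). The *Atf4* call was also lost with RLE scaling (0.26, adjusted p = 0.0762), by DESeq2 (0.26, adjusted p = 0.0699), without the filter on low counts (0.31, adjusted p = 0.0544) and in a fit of only the 2 groups compared (0.29, adjusted p = 0.0965). In BSHhigh its difference was 0.11 ± 0.13 (adjusted p = 0.495). *Ddit3* (ENSMUSG00000025408.15, chr10:127290774-127296288), which also has an ERSE-like match, was lower in BSHlow tumors, unlike *Pdia4* and *Hspa5*. It spanned 8.88 to 14 CPM against 5.60 to 9.06 CPM in BSHlow, a log2 fold change of -0.62 ± 0.21 (adjusted p = 0.0172), and differed by -0.51 ± 0.23 (adjusted p = 0.0680) in BSHhigh. The BSHlow call of *Ddit3* was lost without non-tumor replicate 3 (-0.50, adjusted p = 0.0611) or tumor replicate 1 (-0.51, adjusted p = 0.0516), and with library size alone as the scale (-0.29, adjusted p = 0.188). In BSHhigh *Ddit3* was called with RLE scaling (-0.57, adjusted p = 0.0479), by DESeq2 (-0.57, adjusted p = 0.0326) and without tumor replicate c (-0.66, adjusted p = 0.0479), non-tumor replicate 3 (-0.62, adjusted p = 0.0373) or BSHlow tumor replicate 1 (-0.53, adjusted p = 0.0494). *Ddit3* shares exon sequence with its second row, and the expected counts of both rows were not whole in 7 libraries. It also overlaps the end of *Mars* on the other strand, and whether the counting used strand is not given in the sources used here.

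**Figure D2:**
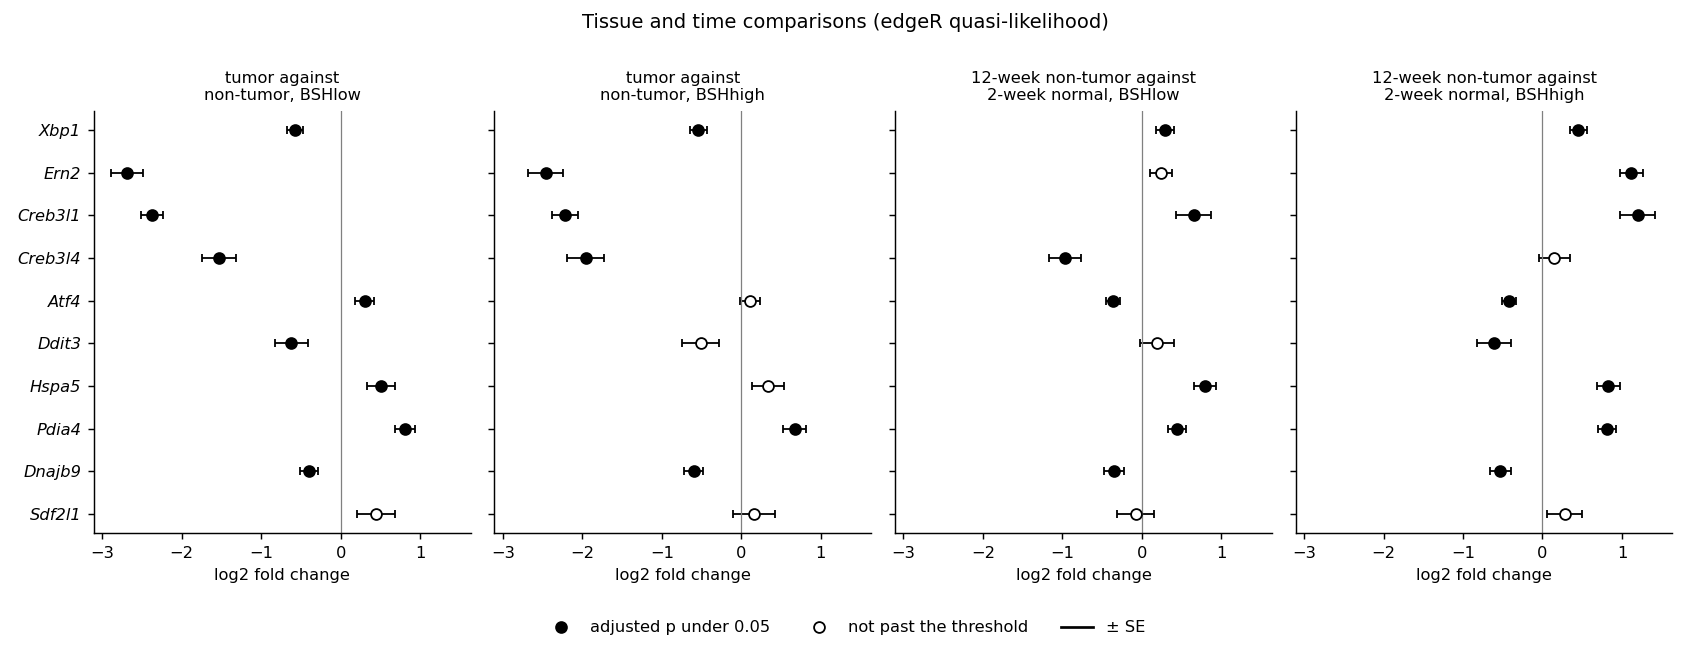
Log2 fold change ± SE (x axis) of each member (y axis) between tumor and non-tumor colon (left panels) and between 12-week non-tumor and 2-week normal colon (right panels), within BSHlow and BSHhigh. Filled points passed an adjusted p of 0.05 in edgeR's quasi-likelihood test. *Ern2*, *Creb3l1* and *Creb3l4* lie far left of 0 in both tumor panels and *Pdia4* lies right of 0 in all 4 panels.

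A wider list of 73 other genes of ER folding and the unfolded protein response was read beside the members. In BSHlow tumors 21 of its 72 tested genes were higher (29.2%) and 23 lower (31.9%) than in non-tumor colon (median log2 fold change 0.02), near the 33.3% and 32.2% of all genes. In BSHhigh tumors 8 were higher (11.1%) and 28 lower (38.9%), beside 29.4% and 27.2% of all genes (median -0.09). By role, 6 of 11 genes of the PERK and ATF4 arm were higher and 2 lower in BSHlow tumors, while none of 12 genes of ER-associated degradation was higher and 6 were lower. In BSHhigh tumors those counts were 3 and 2 of 11, and 0 and 7 of 12. Each role holds few genes, and its counts stand beside the same shares of all genes. Disulfide enzymes were lower in 5 of 11 (2 higher) and in 7 of 11 (0 higher) tested genes.

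The genes with the largest rises in both treatments were *Trib3*, a pseudokinase induced by ATF4 and CHOP (log2 fold change 2.08 ± 0.57 in BSHlow and 2.02 ± 0.61 in BSHhigh), *Cebpb* (1.41 ± 0.28 and 1.05 ± 0.29), *Creb3l2*, a paralog of *Creb3l1* (1.04 ± 0.13 and 1.21 ± 0.13), and *Eif2s1*, the translation factor subunit that PERK phosphorylates (0.99 ± 0.10 and 0.75 ± 0.10). *Creb3l2* thus moved opposite to *Creb3l1* and *Creb3l4*. The levels of *Trib3* were low and spread widely. Tumors averaged 4.17 ± 2.63 CPM (SD) against 0.964 ± 0.304 CPM in BSHlow non-tumor colon, and 2.53 ± 1.56 against 0.611 ± 0.433 CPM in BSHhigh. The largest falls were those of *Creb3l3*, the enterocyte and liver member of the same family (-7.17 ± 1.03 and -3.70 ± 0.92), *Agr2*, a disulfide isomerase needed for mucin (-3.76 ± 0.28 and -2.85 ± 0.30), and *Herpud1*, a factor of ER-associated degradation that the list holds with the PERK and ATF4 arm (-1.67 ± 0.15 and -1.33 ± 0.16). *Edem1* fell by 1.28 on the log2 scale in BSHlow tumors and *Pdia5* by 1.23 in BSHhigh tumors. *Agr2* averaged 787 CPM in BSHlow non-tumor colon and 58.8 CPM in the tumors. *Creb3l3* averaged 43.8 ± 62.3 CPM (SD) in BSHlow non-tumor colon, a spread wider than its mean, and 0.307 ± 0.118 CPM in the tumors. In BSHhigh it averaged 23.3 ± 5.99 and 1.82 ± 1.22 CPM, so the size of its BSHlow fall is poorly fixed.

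**Figure D3:**
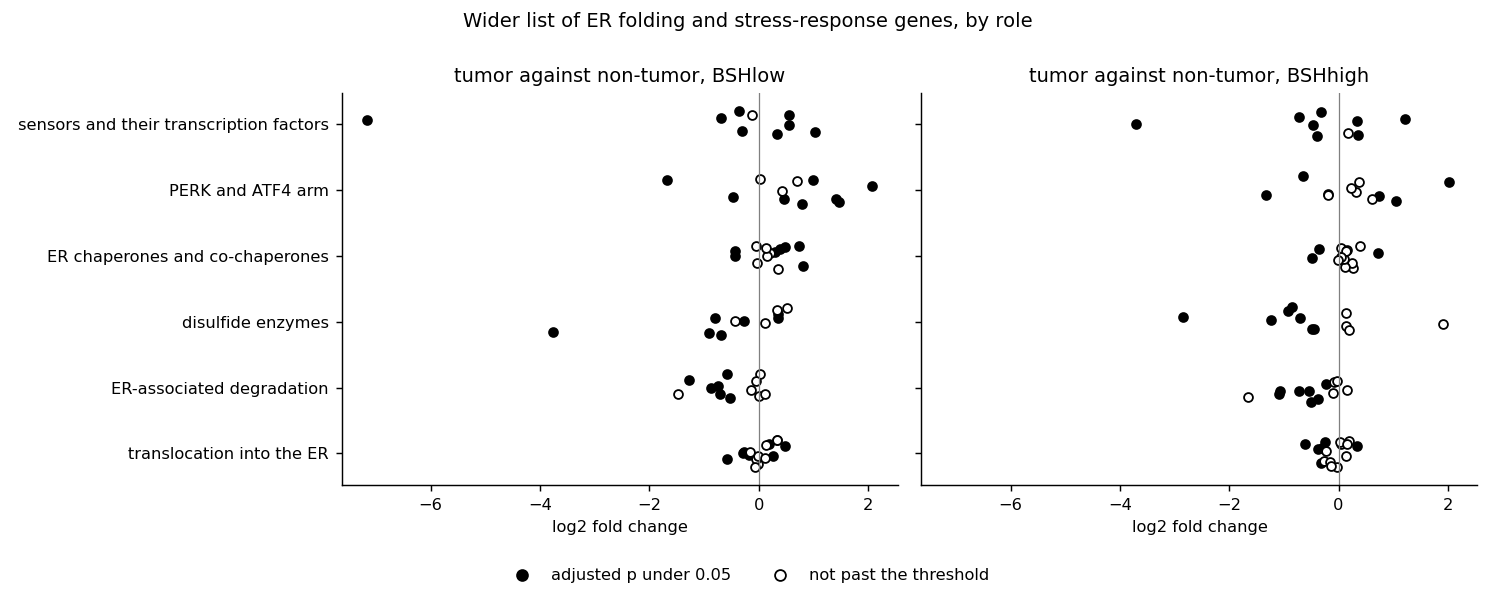
Log2 fold change (x axis) of the 72 tested genes of the wider list between tumor and non-tumor colon, by role (y axis), in BSHlow (left) and BSHhigh (right). Each point is 1 gene, filled where the adjusted p was under 0.05. Genes of the PERK and ATF4 arm lie on both sides of 0, with *Trib3* furthest right in each panel at 2.08 and 2.02, apart from an uncalled disulfide enzyme near it in BSHhigh, and the filled points of ER-associated degradation all lie left of 0.

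Both IRE1 genes were compared within each library, since a ratio inside a library hardly depends on its scaling. The log2 ratio of *Ern2* to *Ern1*, the widely expressed IRE1α, was -0.03, -0.13, 0.03 and -0.24 in BSHlow non-tumor colon and -2.33, -2.16, -2.21 and -3.14 in BSHlow tumors. In BSHhigh it was 0.56, 0.43, 0.35 and 0.60 in non-tumor colon and -1.16, -1.52 and -1.88 in tumors. *Ern1* itself was lower in tumors, with log2 fold changes of -0.36 ± 0.09 (adjusted p = 0.00257) in BSHlow and -0.47 ± 0.10 (adjusted p = 0.000887) in BSHhigh, so that the ratio fell by 2.37 and by 2.00 (two-sided exact permutation test, p = 0.0286 in each, the smallest the design allows, adjusted p = 0.0400 over 7 comparisons).

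The ratio also differed between treatments at 12 weeks. It was higher in BSHhigh by 0.58 in non-tumor colon (0.49 ± 0.11 against -0.09 ± 0.12, SD, n = 4 and 4) and by 0.94 in tumors (-1.52 ± 0.36 against -2.46 ± 0.46, SD, n = 3 and 4), with no overlap in either tissue and the same exact permutation p of 0.0286 (adjusted p = 0.0400). That p is the smallest the design allows. *Ern1* averaged 65.7 CPM in BSHhigh and 64.4 CPM in BSHlow non-tumor colon, and 47.7 and 50.9 CPM in the tumors. The difference in the ratio is thus mainly that of *Ern2*, which edgeR's quasi-likelihood test did not call between treatments. All BSHhigh libraries lay above all BSHlow libraries for 3.23% of all genes in non-tumor colon and 7.93% in tumors. At 2 weeks it was 0.05, 0.28, -0.22 and 0.17 in BSHlow and -0.16, -0.36, 0.26 and -0.36 in BSHhigh, which overlapped (difference -0.23, exact permutation p = 0.286). From 2 to 12 weeks the ratio rose by 0.64 in BSHhigh (exact permutation p = 0.0286, adjusted p = 0.0400) and differed by -0.16 in BSHlow (exact permutation p = 0.229).

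**Figure D4:**
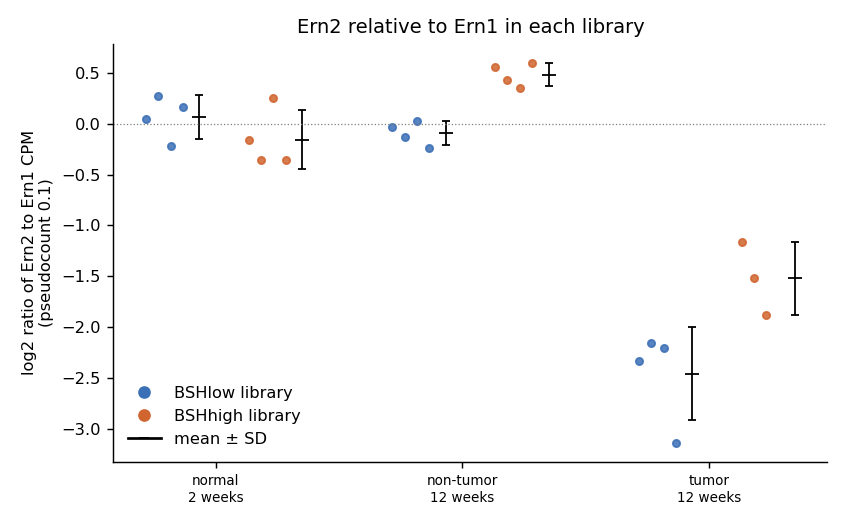
Log2 ratio of *Ern2* to *Ern1* (CPM, pseudocount 0.1) in each of the 23 libraries, by tissue and time. Points are libraries, blue for BSHlow and orange for BSHhigh, and bars are the mean ± SD. The 7 tumors lie between -3.14 and -1.16, below all other libraries, and the 4 BSHhigh non-tumor libraries lie between 0.35 and 0.60.

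BSHhigh was compared with BSHlow within each tissue, the comparison the study was built on. No member was called in any of the 3 tissues by edgeR's quasi-likelihood test. In tumors, 4 members had an unadjusted p under 0.05 (3 higher and 1 lower), where 8.50% of all genes were higher and 4.20% lower at that threshold, and neither DESeq2 nor limma-voom called any after adjustment. Of all 15325 genes tested in tumors, 0.470% were called higher and 0.0392% lower. These counts (72 and 6 genes) depended on single libraries. Without BSHlow tumor replicate 1, 3 or 4 they were 0 and 0, and without BSHlow tumor replicate 2 they were 3 and 0. Without BSHhigh replicate a they were 6 and 0, without b 1 and 0, and without c 243 and 11. DESeq2 called 606 higher and 135 lower.

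In tumors *Ern2*, *Creb3l1* and *Creb3l4* lay higher in every BSHhigh library than in any BSHlow library, at the levels given above. *Ern2* differed by 0.83 ± 0.27 on the log2 scale (adjusted p = 0.235), *Creb3l4* by 0.61 ± 0.19 (adjusted p = 0.228) and *Creb3l1* by 0.39 ± 0.12 (adjusted p = 0.226). *Dnajb9* was the reverse, with 32.0, 36.1 and 34.9 CPM in BSHhigh below 43.4, 38.7, 45.7 and 41.5 CPM in BSHlow (-0.32 ± 0.10, adjusted p = 0.210). All BSHhigh tumors lay above all BSHlow tumors in 7.93% of the genes tested and below them in 3.89%, so 3 and 1 of 10 members are small counts. The other 6 members overlapped, with log2 differences between -0.22 (*Atf4*) and 0.21 (*Xbp1*). With all 23 libraries in one fit, *Ern2* alone passed the threshold (0.84, adjusted p = 0.0185). Goblet cell and absorptive colonocyte markers were higher in the same tumors, each with 3 of 10 called and with like median log2 differences per gene of 3.76 and 3.79. The BSHhigh and BSHlow ranges of the sum did not overlap for goblet cell markers (medians 1416 and 147 CPM). For absorptive colonocyte markers they did, with 376 to 1286 and 231 to 393 CPM (medians 534 and 351 CPM). Plasma cell markers had 1 of 7 tested called (median 2.59), and T cell markers 0 of 6 (median 1.97). None of these marker calls held without BSHlow tumor replicate 1, 3 or 4, where 0 genes were called. Without BSHlow tumor replicate 2, BSHhigh replicate a or BSHhigh replicate b, only 3, 6 and 1 of all genes were called. The part of these cells in the difference of *Ern2*, *Creb3l1* and *Creb3l4* was not tested.

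In non-tumor colon at 12 weeks, *Creb3l4* averaged 44.8 ± 7.93 CPM in BSHhigh and 21.5 ± 6.88 CPM in BSHlow (SD, n = 4 and 4), and *Ern2* 92.3 ± 10.7 against 60.6 ± 7.05 CPM. Neither overlapped between treatments, as held for 3.23% of all 14933 genes in that direction and 2.15% in the other. The log2 differences were 1.05 ± 0.22 (adjusted p = 0.307) and 0.60 ± 0.11 (adjusted p = 0.250). edgeR's quasi-likelihood test called 0% of genes higher and 0% lower here, with 792 higher (5.30%) and 585 lower (3.92%) at an unadjusted p under 0.05, both members among the higher. DESeq2 called 152 genes higher and 42 lower, both members among them (*Creb3l4* adjusted p = 0.00249, *Ern2* adjusted p = 0.000515), and limma-voom called none. The other 8 members differed by between -0.14 (*Ddit3*) and 0.39 (*Sdf2l1*). Goblet cell markers summed to between 12349 and 16919 CPM in BSHlow and between 16459 and 34084 CPM in BSHhigh, with none of 10 called and a median log2 difference of 0.59. Absorptive colonocyte markers (median -0.18) and plasma cell markers (median 0.04) had none called either.

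In normal colon at 2 weeks *Ern2*, *Creb3l1* and *Creb3l4* overlapped between treatments, with log2 differences of -0.26 ± 0.16, -0.29 ± 0.23 and -0.05 ± 0.14. *Ddit3* had 10.5, 10.5, 11 and 7.32 CPM in BSHlow and 16.8, 20.2, 10.5 and 15.4 CPM in BSHhigh (0.67 ± 0.21, adjusted p = 0.651), so that 1 BSHhigh library was within the BSHlow range. *Pdia4* alone did not overlap, with 77.9 to 85.7 CPM in BSHhigh below 88.4 to 109 CPM in BSHlow (-0.21 ± 0.09, adjusted p = 0.725). Of 13752 genes, 0.00727% were called higher and 0% lower, and 2.09% lay wholly above and 1.55% wholly below. *Ddit3* and *Pdia4* had an unadjusted p under 0.05, where 3.83% of all genes were higher and 2.97% lower at that threshold, and neither DESeq2 nor limma-voom called a member.

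Among the 73 genes of the wider list, none was called between treatments in any tissue. All BSHhigh libraries lay above all BSHlow libraries for 6 of 72 tested genes in tumors (8.33%, beside 7.93% of all genes) and for 10 of 71 in non-tumor colon (14.1%, beside 3.23%), *Agr2* in both (log2 difference 1.74, adjusted p = 0.0610, and 0.85, adjusted p = 0.208). At 2 weeks 0 of 70 lay above (2.09% of all genes) and 2 below (2.86%, beside 1.55%). *Agr2* and the other genes of those sets were picked by this overlap after their values were seen.

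**Figure D5:**
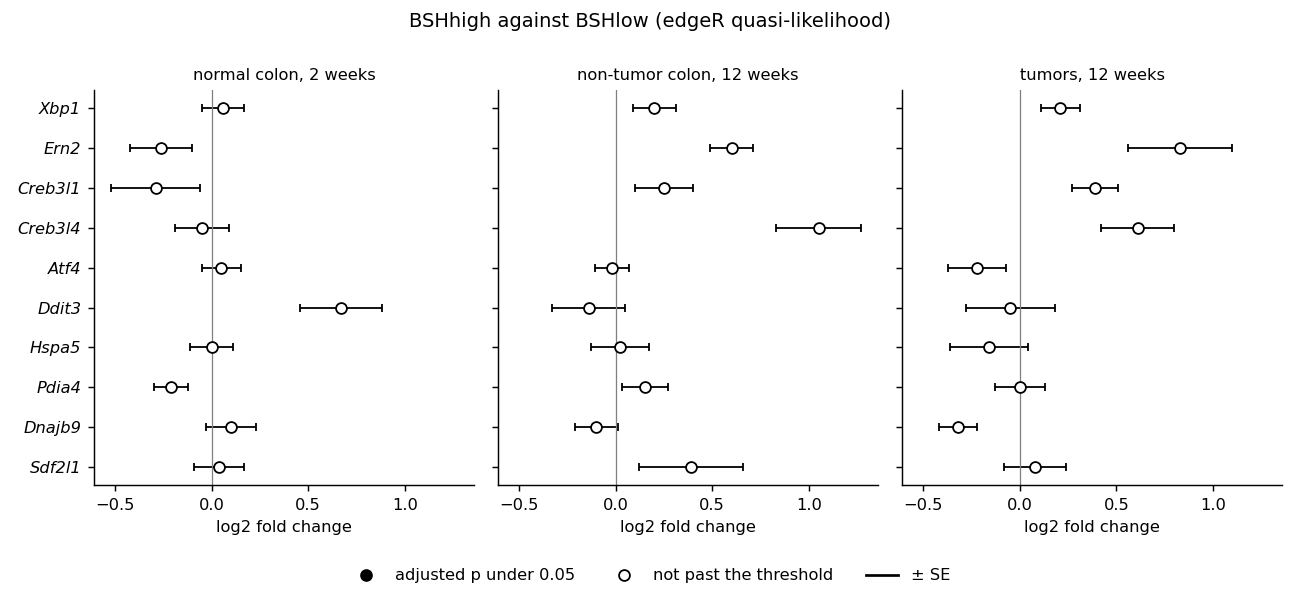
Log2 fold change ± SE (x axis) of each member (y axis) in BSHhigh against BSHlow, in normal colon at 2 weeks (left), non-tumor colon at 12 weeks (middle) and tumors at 12 weeks (right). All points are open, since none passed an adjusted p of 0.05 in edgeR's quasi-likelihood test. *Ern2* and *Creb3l4* lie at 0.60 and 1.05 in the middle panel and at 0.83 and 0.61 in the right panel.

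Whether the treatment effect differed between tumors and non-tumor colon was tested as an interaction. No member passed, by edgeR's quasi-likelihood test, DESeq2 or limma-voom, none had an unadjusted p under 0.05, and the differences of the effects ran from -0.43 ± 0.31 (*Creb3l4*) to 0.24 ± 0.28 (*Ern2*) on the log2 scale. Of all genes, 0.978% were called with a more positive effect in tumors and 0.0122% with a more negative one by edgeR's quasi-likelihood test. DESeq2 called 401 and 22 genes, and limma-voom called 0 of all genes, markers included. Of the absorptive colonocyte markers edgeR called 7 of 10 more positive (median difference of the effects 3.80), of the goblet cell markers 4 of 10 (median 3.26) and of the plasma cell markers 1 of 8 (median 2.55).

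Non-tumor colon of 12 weeks was set against normal colon of 2 weeks within each treatment, where age, time on diet and bacterium, and any difference in collection cannot be told apart. It uses the non-tumor libraries of the tumor comparison again. In BSHlow 4 members were higher at 12 weeks and 3 lower, and in BSHhigh 5 were higher and 3 lower. Of all 15532 genes, 25.6% were higher and 23.5% lower in BSHlow, and 27.0% and 22.7% in BSHhigh. Smooth muscle markers summed to between 15.2 and 230.3 CPM in the 8 libraries of 2 weeks and to between 1590.0 and 8721 CPM in those of 12 weeks (8 of 8 called in both treatments), and plasma cell markers, of cells that also secrete heavily, were higher in 5 of 8 and lower in 1. Fibroblast markers were higher in 6 of 6 in both treatments and myeloid markers in 4 and 7 of 7, while absorptive colonocyte markers were lower in 5 of 10 and epithelial markers in 3 of 6 in both. Goblet cell markers were higher in 3 and lower in 3 of 10 in BSHlow, and higher in 5 and lower in 1 in BSHhigh. The part of these cells in the members' values was not tested.

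*Hspa5* rose in both treatments, from 359, 372, 300.2 and 389 CPM at 2 weeks in BSHlow and 346, 343, 353 and 388 CPM in BSHhigh to the levels of 545 CPM and above given for non-tumor colon. The times did not overlap, with log2 fold changes of 0.79 ± 0.14 (adjusted p = 0.000237) and 0.83 ± 0.14 (adjusted p = 0.000169). *Pdia4* rose from 88.4 to 109 CPM at 2 weeks in BSHlow by 0.44 ± 0.11 (adjusted p = 0.00400), and from 77.9 to 85.7 CPM in BSHhigh by 0.81 ± 0.11 (adjusted p = 3.1e-05). *Xbp1* rose by 0.29 ± 0.11 (adjusted p = 0.0360) and 0.45 ± 0.11 (adjusted p = 0.00329), and the BSHlow call was lost without any of 7 libraries (adjusted p up to 0.107, at 0.24 without non-tumor replicate 1) or without the filter on low counts (0.29, adjusted p = 0.0675).

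*Creb3l1* had 111, 104, 121 and 166 CPM at 2 weeks in BSHlow and 91.0, 96.5, 155 and 70.0 CPM in BSHhigh, and rose by 0.65 ± 0.22 (adjusted p = 0.0209) and 1.20 ± 0.22 (adjusted p = 0.000366). In BSHlow the non-tumor library of 136 CPM lay within the 2-week range, and the call was lost without any of 4 libraries (2-week replicate 1 or 2, non-tumor replicate 2 or 3, adjusted p = 0.0514 to 0.0637). *Ern2* had 46.7, 47.5, 48.8 and 60.4 CPM in BSHlow and 43.2, 34.7, 56.2 and 36.9 CPM in BSHhigh at 2 weeks. It rose in BSHhigh by 1.12 ± 0.15 (adjusted p = 2.2e-05), and differed by 0.24 ± 0.14 (adjusted p = 0.174) in BSHlow. *Creb3l4* had 43.3, 48.3, 36.2 and 39.1 CPM in BSHlow and 38.3, 32.5, 47.4 and 43.8 CPM in BSHhigh at 2 weeks. It fell in BSHlow by 0.97 (± 0.20, adjusted p = 0.000893), and differed by 0.15 ± 0.19 (adjusted p = 0.541) in BSHhigh. Whether these changes over time differ between treatments was not tested.

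*Atf4* was lower at 12 weeks in both treatments, with log2 fold changes of -0.36 ± 0.09 (adjusted p = 0.00472) and -0.42 ± 0.09 (adjusted p = 0.00187), and so was *Dnajb9*, with -0.35 ± 0.13 (adjusted p = 0.0363) and -0.53 ± 0.13 (adjusted p = 0.00306). The BSHlow call of *Dnajb9* was lost without any of 5 libraries (adjusted p up to 0.119, without 2-week replicate 2), with upper-quartile scaling (-0.29, adjusted p = 0.0678) and in a fit of only the 2 groups compared (-0.35, adjusted p = 0.0753). *Ddit3* fell in BSHhigh (-0.61 ± 0.21, adjusted p = 0.0225), a call lost without any of 4 libraries (-0.47, adjusted p = 0.0863, without 2-week replicate 2), while *Sdf2l1* was called in neither treatment. Scaling by library size alone moved the median log2 fold change of all genes by 0.33 (BSHlow) and 0.30 (BSHhigh) between tumor and non-tumor colon and by 0.23 and 0.28 between the times. Over time the calls of *Atf4* and *Dnajb9* in both treatments and of *Ddit3* in BSHhigh were lost under it, and *Ern2* in BSHlow (0.47, adjusted p = 0.0276) and *Sdf2l1* in BSHhigh (0.56, adjusted p = 0.0367) were called.

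In the wider list, 19 of 72 tested genes were higher and 10 lower at 12 weeks in BSHlow (26.4% and 13.9%, beside 25.6% and 23.5% of all genes), and 34 higher and 6 lower in BSHhigh (47.2% and 8.33%, beside 27.0% and 22.7%), where 8 of 13 chaperones and 7 of 16 genes of translocation into the ER were higher. *Creb3l2* (log2 fold change 2.15 ± 0.14 in BSHlow and 2.14 ± 0.14 in BSHhigh) and the oxidase *Ero1l* (0.81 ± 0.19 and 1.17 ± 0.20) were among the largest rises in both, with *Herpud1* (1.07 ± 0.11) and *Ppp1r15a* (1.03 ± 0.16) in BSHlow and *Derl3* (2.34 ± 0.69) and the chaperone *Hyou1* (0.83 ± 0.13) in BSHhigh. *Nupr1* (-1.40 ± 0.26 and -1.13 ± 0.26), *Sesn2* (-1.23 ± 0.16 and -0.67 ± 0.16) and *Ppp1r15b* (-0.58 ± 0.09 and -0.37 ± 0.09), all of the PERK and ATF4 arm, were the largest falls in both. *Edem3* fell by 0.44 in BSHlow and *Derl2* by 0.26 in BSHhigh. The levels of *Derl3* in BSHhigh were low, with 4.01 ± 2.99 CPM (SD) at 12 weeks and 0.788 ± 0.268 CPM at 2 weeks. *Ern1* rose by 0.39 ± 0.11 (adjusted p = 0.00738) and 0.49 ± 0.11 (adjusted p = 0.00162).

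Across the 16 non-tumor and 2-week libraries, which differ in time and share their scaling, the log2 levels of *Hspa5* and *Pdia4* had a Pearson correlation of 0.91, *Ern2* and *Creb3l1* of 0.87 and *Dnajb9* and *Creb3l1* of -0.89. *Atf4* ran against *Pdia4* (-0.85). Of 11060 genes, those most like *Ern2* were *Galnt5* (0.97), *Rab3d* (0.97) and *Sytl2* (0.95), and those most like *Creb3l1* were *Lrig1* (0.97), *Tmem63a* (0.96) and *Zbtb8a* (0.96). For *Hspa5* they were the ER chaperone *Hsp90b1* (0.96), *Ndst1* (0.95) and *Gk* (0.95), and for *Ddit3* *Xkr9* (0.83), *Chmp7* (0.81) and *Efna1* (0.79). These values describe 16 libraries and were not tested.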

How the data were processed

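Reads of 23 mouse colon libraries were trimmed with Cutadapt, aligned to mm10 with STAR and counted per gene with RSEM by the authors, whose table holds expected counts that were not normalized (tool versions are not given in the sources used here, and GENCODE M21 matched all 55449 gene identifiers). The labels name a stranded total RNA kit and the study's methods a stranded mRNA kit. One row with text in a cell was left out (1 row), all value columns were used, and 4.24% of the deposited expected counts were not whole and were rounded. Libraries of a group were checked against each other and differed beyond sampling noise (chi-square per degree of freedom 17.7 to 137.9 in 33 pairs).

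Counts were tested with edgeR 4.0.16 (quasi-likelihood, TMM scaling, filterByExpr, R 4.3.3), adjusted by Benjamini-Hochberg over all genes tested, and called at an adjusted p under 0.05. Treatments were compared within the libraries of 1 tissue, tumors with non-tumor colon in a fit of the 15 libraries of 12 weeks, and times in a fit of 16. The script was tested on simulated data. CPM values share 1 TMM scale over 23 libraries and their precision is limited by the 3 or 4 libraries a group. The ratio of *Ern2* to *Ern1* used a pseudocount of 0.1 CPM and a two-sided exact permutation test, adjusted over 7 comparisons. The results were recomputed with DESeq2 1.42.0 and limma-voom (limma 3.58.1), with scaling by RLE, the upper quartile or the library size alone, without the filter, with other sets of libraries, with a replicate block, and with each library left out in turn. Of the wider list, up to 4 higher and 4 lower genes were named per comparison, those with the largest log2 fold change among called genes with non-overlapping groups and a mean CPM of 1 or more, plus *Ern1*. Genes most like *Ern2*, *Creb3l1*, *Hspa5* and *Ddit3* were the 3 of highest Pearson correlation with a mean CPM of at least 5. The members and lists were chosen with earlier results of these data known. Same-numbered libraries did not deviate together (correlations -0.17 to 0.26), so their numbers were not taken as pairs.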

Additional observations from a re-analysis of the deposited data

Results flagged for a closer look

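In 5 of the 50 sets of 4 libraries examined (10 genes in 5 groups), 1 library stood apart from the other 3 by Dixon's criterion, which chance meets in about 5% of sets. Replicate 4 of BSHlow normal colon at 2 weeks gave 3 of them. *Pdia4* was 109 CPM there and 88.4 to 89.6 CPM in the other 3 libraries, *Ern2* was 60.4 against 46.7 to 48.8 CPM, and *Ddit3* was 7.32 against 10.5 to 11 CPM. *Creb3l4* was 10.1 CPM in replicate 2 of the BSHlow tumors and 6.48 to 7.04 CPM in the others. *Pdia4* was 177 CPM in replicate 4 of BSHhigh non-tumor colon and 128 to 134 CPM in the others.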

How the results depend on the processing

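Over 80 pairs of a member and a comparison, 30 were called. Under 729 refits of these 30 the direction never turned, 671 stayed past the threshold and 58 did not, and 17 of the 30 calls held in every refit. Without TMM (library size alone) tumors gained and lost calls: 3 members instead of 6 were lower in BSHlow (*Xbp1*, *Ddit3* and *Dnajb9* lost), and 3 instead of 1 were higher in BSHhigh (*Hspa5* 0.64, *Atf4* 0.41 and *Pdia4*). Over time 1 member was then lower in BSHlow (3 before) and 0 in BSHhigh (3 before). These follow the shift of all genes given in the report. One fit of all 23 libraries called 1 member (*Ern2*) higher in BSHhigh tumors, and DESeq2 called 2 in non-tumor colon. The replicate block left 1 member higher in BSHlow tumors (3 without it; *Hspa5* 0.48, adjusted p = 0.108, and *Atf4* 0.28, adjusted p = 0.127) and 2 higher at 12 weeks in BSHlow (4 without it; *Creb3l1* 0.65, adjusted p = 0.0756, and *Xbp1* 0.29, adjusted p = 0.0569), where *Dnajb9* was not called lower either (-0.34, adjusted p = 0.137). Leaving out 1 library gave 1 to 3 members higher in BSHlow tumors, 1 to 2 in BSHhigh tumors and 2 to 4 higher at 12 weeks in BSHlow.

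Uncalled values near 0 changed sign 37 times when 1 library was left out and 9 times otherwise, none beyond 0.16. The 9 were *Pdia4* in tumors by treatment (0.01, 0.00, 0.01 and 0.01), *Hspa5* at 2 weeks by treatment (-0.02 with upper-quartile scaling, -0.07 with library size alone) and, with library size alone, *Sdf2l1* (-0.01) and *Atf4* (-0.01) at 2 weeks and *Sdf2l1* over time in BSHlow (0.16). With 1 library left out, BSHhigh against BSHlow in tumors ran from -0.21 to 0.05 (*Ddit3*), -0.27 to 0.03 (*Hspa5*), -0.07 to 0.12 (*Pdia4*) and 0.00 to 0.23 (*Sdf2l1*). In non-tumor colon it ran from -0.08 to 0.04 (*Atf4*) and -0.14 to 0.11 (*Hspa5*). At 2 weeks it ran from -0.02 to 0.12 (*Xbp1*), -0.14 to 0.04 (*Creb3l4*), -0.07 to 0.05 (*Hspa5*), 0.00 to 0.18 (*Dnajb9*) and -0.02 to 0.17 (*Sdf2l1*). The interaction ran from -0.04 to 0.13 (*Xbp1*), -0.04 to 0.23 (*Ddit3*), -0.30 to 0.04 (*Hspa5*) and -0.22 to 0.00 (*Pdia4*), and *Sdf2l1* over time in BSHlow from -0.22 to 0.08. The causes of these shifts were not tested. The ratio of *Ern2* to *Ern1* kept its direction with a pseudocount of 0.5 CPM and with each library left out. Between treatments it then spanned 0.71 to 1.12 in tumors (exact permutation p = 0.0667 to 0.133) and 0.53 to 0.62 in non-tumor colon, and between tumor and non-tumor colon -2.19 to -1.82 in BSHhigh (exact permutation p = 0.0667 to 0.1) and -2.47 to -2.14 in BSHlow. From 2 to 12 weeks in BSHhigh it spanned 0.57 to 0.78 (exact permutation p = 0.0286 to 0.0571). With 2 against 4 or 3 against 3 libraries this test cannot reach 0.05.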
